A study of Homo sapiens with 6 samples.

Results

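Chemokines are small secreted proteins that draw leukocytes toward a tissue, and inflammatory cytokines such as IL6 and IL1A carry alarm signals between epithelial cells, stroma, and immune cells. CXCL1, CXCL2, CXCL3, CXCL5, and CXCL8 are CXC chemokines that attract neutrophils through the receptors CXCR1 and CXCR2, whereas the CC chemokines CCL2, CCL5, and CCL20 attract monocytes, T cells, and CCR6-bearing lymphocytes and dendritic cells, respectively. Lung epithelial and lung cancer cells are known to make many of these RNAs through NF-kB and AP-1, and many of the messages carry AU-rich elements in the 3' UTR, which shorten the life of an RNA. These genes were followed in non-small cell lung cancer (NSCLC) cell lines in which the nuclear lncRNA MALAT1 was knocked down.

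The 10 genes CCL2, CCL5, CCL20, CXCL1, CXCL2, CXCL3, CXCL5, CXCL8, IL6, and IL1A were taken by symbol from a table of 46427 genes, and each was found once. RNA-seq of total RNA after ribosomal RNA removal was available for 6 libraries, 1 per condition (control or si-MALAT1) in each of 3 lines: H460, a large cell lung carcinoma line, H1299, an NSCLC line from a metastasis, and A549, a lung adenocarcinoma line. The si-MALAT1 cells had been transiently transfected with an siRNA against MALAT1. The labels give the controls as non-treated, whereas the methods describe negative control and si-Control cells and do not say which was sequenced, so that the effects of transfection and of MALAT1 loss cannot be told apart. Nothing says how many cultures stand behind a library. With 1 library a group in each line, no fold change of a single line can be set against replicates, and the 95% interval beside it (exact, Clopper-Pearson, from the share of reads in either library) covers counting error only.

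Library totals ranged from 42506818 to 68515992 reads. MALAT1, the target, had 93747 to 407551 reads in the controls and 14447 to 47935 after si-MALAT1, and it was the only gene called in the paired edgeR test (adjusted p = 0.0381). That call was lost without H1299 (0.125), without A549 (0.275), without the filter on low counts (0.171), and without the cell line block (1.0), and it held with DESeq2 (7.05e-55). The epithelial keratins KRT8 (123 to 1780 TPM) and KRT18 (236 to 2920 TPM) were abundant in the 6 libraries. KRT7 and KRT19 depended on the line. In the H460, H1299, and A549 controls, KRT7 stood at 24.2, 0.987, and 781 TPM and KRT19 at 550, 0.256, and 0.888 TPM. EPCAM stayed between 0.252 and 8.04 TPM, and CDH1, an adherens junction protein, had 2 to 13 reads in the H460 and H1299 libraries against 4693 and 7373 in A549. The leukocyte markers PTPRC, CD3E, CD3D, MS4A1, and FCGR3A were at 0 reads in the 6 libraries. In bulk RNA, fewer cells making a gene and less RNA per cell cannot be told apart.

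The 5 CXC chemokine genes lie within 359 kb of each other on chromosome 4 of GRCh38. Sequences upstream of their starts are shown because they share a stretch of letters at almost the same distance from the start. The lines hold 110 bases, from 150 to 41 bases before the RefSeq start on the gene's own strand (RefSeq, GRCh38.p14), written 5' to 3'. Capitals mark matches to GGAATTTCC or to the 10-base NF-kB consensus, searched on both strands, where neighbouring matches overlap.
CXCL8: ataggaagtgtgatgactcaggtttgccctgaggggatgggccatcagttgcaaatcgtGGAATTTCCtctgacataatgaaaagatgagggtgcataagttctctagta
CXCL1: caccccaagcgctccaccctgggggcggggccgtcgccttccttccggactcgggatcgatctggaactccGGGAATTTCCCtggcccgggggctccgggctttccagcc
CXCL2: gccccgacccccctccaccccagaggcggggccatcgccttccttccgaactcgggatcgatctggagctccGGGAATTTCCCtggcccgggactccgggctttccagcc
CXCL3: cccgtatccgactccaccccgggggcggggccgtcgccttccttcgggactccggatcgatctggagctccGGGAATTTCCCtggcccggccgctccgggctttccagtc
CXCL5: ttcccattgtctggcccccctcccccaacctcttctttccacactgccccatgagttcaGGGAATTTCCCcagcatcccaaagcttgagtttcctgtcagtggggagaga
IL6: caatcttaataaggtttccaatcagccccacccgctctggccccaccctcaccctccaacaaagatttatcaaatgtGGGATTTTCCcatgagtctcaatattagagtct

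These stretches lie at chr4:73740419-73740528 (plus strand) for CXCL8, chr4:73869243-73869352 (plus strand) for CXCL1, chr4:74099236-74099345 (minus strand) for CXCL2, chr4:74038730-74038839 (minus strand) for CXCL3, chr4:73998718-73998827 (minus strand) for CXCL5, and chr7:22727050-22727159 (plus strand) for IL6. GGAATTTCC was found in the 250 bases upstream of 5 of the 8 genes present in the promoter table (CXCL1, CXCL2, CXCL3, CXCL5, and CXCL8), against 0.413% of the 35116 promoters there. With the base just before the start as position -1, it began at position -78 in CXCL1 and CXCL3, at -77 in CXCL2, at -90 in CXCL5, and at -91 in CXCL8. GGAATTTCC was chosen after these sequences had been read, so its count is a description. The wider NF-kB consensus matched 7 of the 8, all except IL1A, against 12.3% of promoters, and its match in IL6 ran from position -73 to -64. In CXCL8 its only match ran from position -17 to -8, outside the printed stretch. The GGAATTTCC printed for CXCL8 is not a match to the wider consensus. TGANTCA, the letters of an AP-1 site, was present in CXCL8 and IL1A (2 of 8, against 6.57%). TTGCNNAA, the letters of a C/EBP site, was present in CXCL2 and IL6 (2 of 8, against 9.05%), and TATAAA in CCL20, CXCL8, and IL1A (3 of 8, against 10.7%). CCL2 and CCL5 are not in the promoter table.

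The printed stretches of CXCL1 and CXCL3 were identical at 85.5% of 110 bases, and CXCL2 matched either at 77.3%, counted without gaps and with a shift of up to 6 bases allowed. CXCL5 and CXCL8 matched each other and these 3 genes at 26.4% to 34.5%, close to the 27.3% to 39.1% over the pairs that include CCL20, IL1A, or IL6. Of the 50-base windows of their transcripts, 5.33% in CXCL1, 10.1% in CXCL2, and 5.26% in CXCL3 were also present in another of these 3. A read as short as 50 bases from such a window could therefore be assigned to either gene. No 100-base window was shared, and no 50-base window of the other 7 genes was shared within the group.

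In the control cells, the 3 lines made very different amounts of these RNAs. Summed over the 10 genes, the level was 1939 TPM in H460, 206.9 TPM in A549, and 25.47 TPM in H1299, which was 0.249%, 0.0309%, and 0.00249% of the reads. CXCL8 alone gave 54.1% of the sum in H460 and ranked 57 among all genes by TPM. CXCL5 gave 49.2% of the sum in A549, and CXCL2 gave 88.5% of it in H1299. H460 control cells were thus dominated by CXCL8 and CXCL1 (1050 and 538 TPM), followed by IL6 at 154 TPM and CXCL5 at 98.5 TPM.

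**Figure D1:**
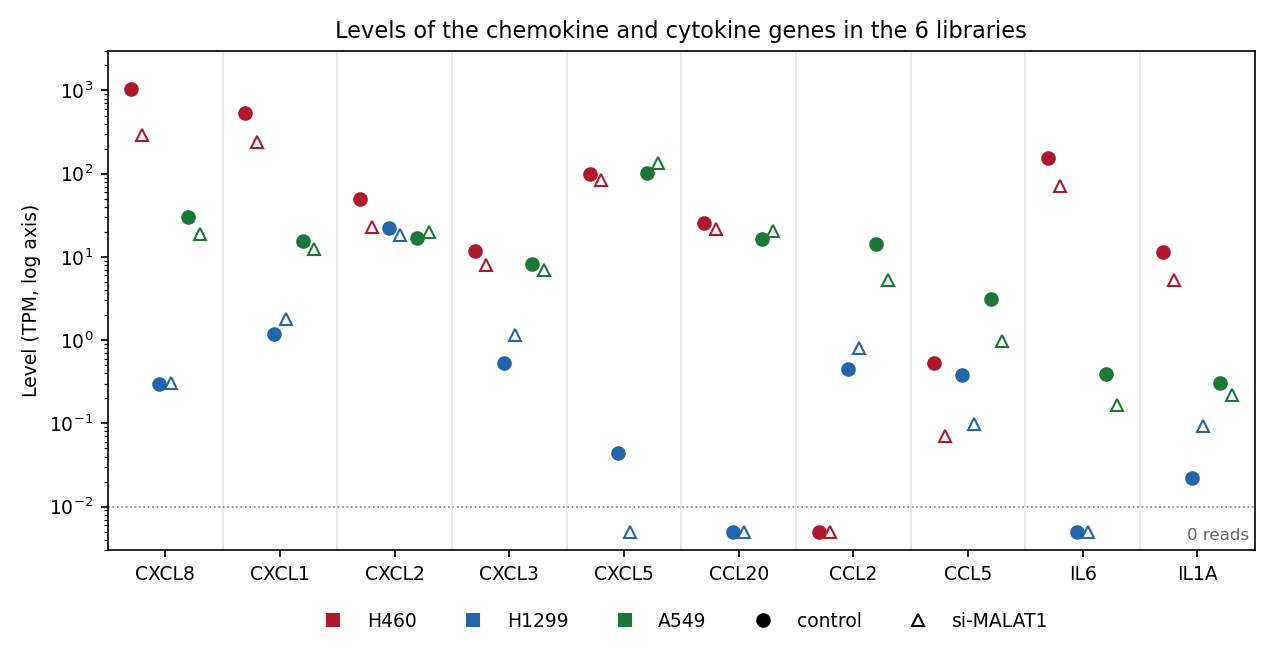
Level of each gene (TPM, log axis) in the 6 libraries, with filled circles for control and open triangles for si-MALAT1. Points below the dotted line had 0 reads. CXCL8 spans from 0.294 TPM in the H1299 control to 1050 TPM in the H460 control, whereas CXCL2 lies between 16.7 and 49.2 TPM in the 3 controls.

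The distance between lines differed from gene to gene. Scaled by size factors, CXCL8 reads were 39.7-fold higher in the H460 than in the A549 control (95% interval 37.9 to 41.6) and 4130-fold higher than in H1299 (2870 to 6160). CXCL1 and IL1A, an alarmin that acts through IL1R1, had similar gaps between H460 and A549, at 40.1-fold and 43.5-fold. IL6 had 10875 reads in H460, 21 in A549, and 0 in H1299, that is 364-fold higher in H460 than in A549 and at least 4230-fold higher than in H1299 with 3 reads as the floor. CXCL2 and CXCL5 showed a different order. CXCL2 was 2.57-fold higher in H460 than in H1299 and 3.46-fold higher than in A549, so that it was the only one of the 10 above 82 reads in the H1299 control (1451 reads). CXCL5 was almost as high in A549 as in H460 (8676 and 13986 reads, 1.13-fold after scaling), with 7 reads in the H1299 control. CCL2 went the other way, with 0 reads in both H460 libraries, 20 in the H1299 control, and 372 in the A549 control. The order of the lines thus differed between genes of the group, and with 1 control library per line these gaps have no replicate error.

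After si-MALAT1, the summed level of the 10 genes was 743.1 TPM in H460, 22.65 TPM in H1299, and 217.6 TPM in A549, lower than its control in H460 and H1299 and higher in A549. In H460, 6 of the 10 genes (CCL5, CXCL1, CXCL2, CXCL8, IL6, and IL1A) were lower by at least 1.5-fold and 0 were higher. Of the 17834 genes with a read in each library, 10.3% were lower and 9.5% higher by that much in H460. In H1299, 2 were lower (CCL5 and CXCL5) and 3 higher (CCL2, CXCL3, and IL1A), where 11.4% and 11.7% of all genes passed. In A549, 4 were lower (CCL2, CCL5, CXCL8, and IL6) and 0 higher, where 11.4% and 11.5% of all genes passed. Only 6 of the 10 genes had a read in each library (CCL5, CXCL1, CXCL2, CXCL3, CXCL8, and IL1A), so the percentages for all genes come from a better expressed set than the 10 genes.

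The paired test asked whether the mean si-MALAT1 effect over the 3 cell lines differed from 0. With edgeR's quasi-likelihood test and the cell line as block, 0 of the 10 were called at an adjusted p under 0.05, where 0.00523% of 19122 genes were called (MALAT1 alone). Without adjustment, 3 of the 10 had p under 0.05 (CCL5, IL6, and CXCL8), as did 2863 of the 19122 genes tested. DESeq2 called 2 of the 10, IL6 (adjusted p = 0.0123) and CXCL8 (adjusted p = 0.0288), and 5.96% of the 19122 genes, and it gave no adjusted p for CCL2 and CCL5. An exact paired permutation test of a single gene over 3 pairs cannot go below p = 0.25. The values are therefore given line by line, and p-values measure only the spread between these libraries.

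**Figure D2:**
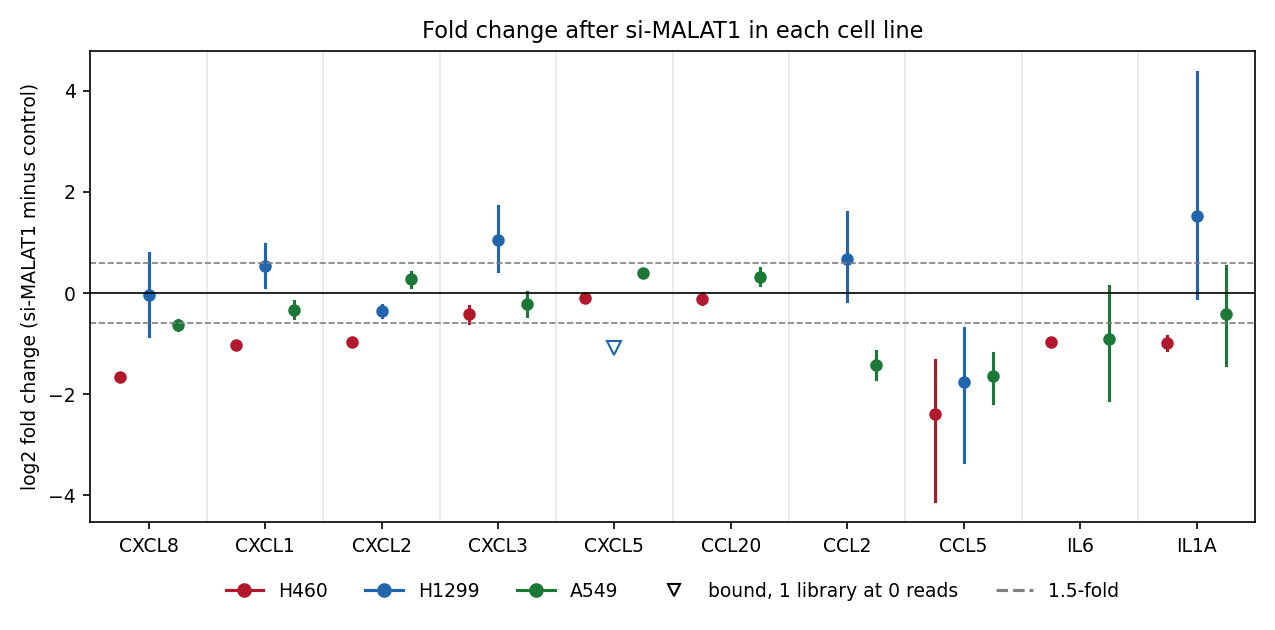
Log2 fold change (si-MALAT1 minus control) of each gene in each cell line, with the 95% counting interval as a bar and dashed lines at 1.5-fold. The open triangle is the bound for CXCL5 in H1299, where the si-MALAT1 library had 0 reads, and lines with 0 reads in both libraries carry no point. CCL5 lies below the lower dashed line in the 3 cell lines, and CXCL1, CXCL2, CXCL3, and CXCL5 have points on both sides of 0.

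CXCL8, the main neutrophil attractant of human epithelium, was read 102547 times in H460 control cells against 30603 times after si-MALAT1, 1815 against 1297 times in A549, and 29 against 26 times in H1299. Its log2 fold change was -1.66 (95% interval -1.68 to -1.64) in H460 and -0.63 (-0.73 to -0.53) in A549, and in H1299 it was -0.03 with an interval from -0.85 to 0.79. The largest difference was thus in the line with the most CXCL8, and at 29 reads a 1.5-fold difference in H1299 was not detectable. Over the pairs, the edgeR log2 fold change was -1.0 with an SE of 0.29 (adjusted p = 0.203), and it was -0.48 without H460 (adjusted p = 0.342). CXCL8 remained the highest of the 10 genes in H460 after si-MALAT1, at 290 TPM, but its rank among all genes went from 57 to 236 and its part of the summed level from 54.1% to 39.0%.

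CXCL1 went from 36844 to 17134 reads in H460 and from 646 to 569 in A549, but in H1299, with 82 reads in the control, its level went from 1.2 to 1.82 TPM. The log2 fold changes were -1.02 (-1.05 to -1.0), -0.33 (-0.49 to -0.16), and 0.53 (0.11 to 0.97), so that the counting intervals of H460 and A549 lay below 0 and that of H1299 above it. CXCL2 had 3200 control and 1549 si-MALAT1 reads in H460, 650 and 865 in A549, and 1451 and 1032 in H1299, and its log2 fold changes were -0.96 (-1.05 to -0.88), 0.27 (0.12 to 0.42), and -0.36 (-0.48 to -0.24). For this close homologue of CXCL1 it was A549, not H1299, that lay on the other side of 0. CXCL3, the third close homologue, went from 730 to 514 reads within H460 (log2 fold change -0.42, -0.59 to -0.26), from 308 to 293 in A549 (-0.22, -0.45 to 0.02), and from 33 to 63 in H1299 (1.04, 0.43 to 1.72). The paired edgeR log2 fold changes were -0.40 for CXCL1 (adjusted p = 0.569), -0.38 for CXCL2 (adjusted p = 0.511), and 0.02 for CXCL3 (adjusted p = 0.981). The 3 genes thus shared the direction in H460 and did not share it in H1299 or A549, and the difference between cell lines could not be tested with 1 pair each.

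CXCL5, which binds CXCR2, was high in both H460 and A549. It went from 13986 to 12322 reads in H460 (log2 fold change -0.10, -0.14 to -0.07) and from 8676 to 12601 reads in A549 (0.39, 0.35 to 0.43). In H1299 it went from 7 to 0 reads, at least 2.13-fold lower with 3 reads as the floor. In H460, CXCL5 stood at 98.5 TPM before and 83.6 TPM after si-MALAT1. In the same libraries CCL20 had a similar log2 fold change (-0.11), and CXCL3 had -0.42. CXCL8, CXCL1, CXCL2, IL6, and IL1A had log2 fold changes of -0.96 to -1.66 there, and the rare CCL5 had -2.39. In A549 the level of CXCL5 was 102 TPM before and 133 TPM after, and its part of the summed level went from 49.2% to 61.0%. The higher sum in A549 rests on CXCL5 together with CCL20 and CXCL2, since the other 7 genes were each lower there.

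CCL5, which attracts T cells, was a rare RNA that was lower in each line. It had 38 reads before and 6 after si-MALAT1 in H460, 29 before and 7 after in H1299, and 135 before and 47 after in A549. The log2 fold change was -2.39 (-4.11 to -1.33) in H460, -1.76 (-3.35 to -0.70) in H1299, and -1.65 (-2.18 to -1.18) in A549, with each interval below 0. It was the only one of the 10 genes lower by at least 1.5-fold in all 3 lines, as were 1.28% of all genes, and the only one past a log2 fold change of -1.5 in each of them, where 1.46% of all genes were that low in H460, 1.68% in A549, and 1.18% in H1299. CXCL8 passed that second threshold in H460. With 10 rather than 1 added to the scaled counts, CCL5 had -1.51, -1.04, and -1.51 in H460, H1299, and A549. With log2(TPM + 1) CCL5 had -0.51, -0.33, and -1.07, past 1.5-fold in A549 only. The paired edgeR log2 fold change of CCL5 was -2.0 with an SE of 0.42 (adjusted p = 0.124), and without each line in turn the adjusted p lay between 0.159 and 0.816. CCL5 is among the genes that the study picked from these same libraries, so its direction is not independent evidence. Its levels were 0.0709 to 3.12 TPM. LOC105371744, a lncRNA on the opposite strand that covers the whole CCL5 model, had 1 read in the 6 libraries together.

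CCL2, which attracts monocytes through CCR2, was detected in 2 of the 3 lines. It went from 372 to 153 reads in A549 (log2 fold change -1.42, -1.71 to -1.15), or from 14.4 to 5.27 TPM, and from 20 to 30 reads in H1299 (0.68, -0.15 to 1.61). CCL20, the ligand of CCR6, went from 1252 to 1100 reads in H460 (-0.11, -0.22 to 0.01) and from 477 to 660 in A549 (0.32, 0.15 to 0.50), with 0 reads in both H1299 libraries. The 3 CC chemokines thus behaved differently within A549, where CCL2 and CCL5 were lower and CCL20 higher by their counting intervals. Their paired estimates were -0.55 for CCL2 (adjusted p = 0.733) and 0.09 for CCL20 (adjusted p = 0.930), each resting on the 2 lines with reads.

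IL6, which signals through IL6R and IL6ST, went from 10875 to 5250 reads in H460 (log2 fold change -0.97, -1.02 to -0.92), or from 154 to 70.7 TPM. In A549 it had 21 and 12 reads (-0.91, -2.11 to 0.14), and in H1299 it had 0 in both libraries. The values in H460 and A549 were close, but the interval in A549 includes 0 and that in H460 does not. The paired edgeR estimate was -0.98 with an SE of 0.17 (adjusted p = 0.114) and rests on H460 and A549. IL6-AS1, a lncRNA on the opposite strand, overlaps the IL6 model by 1732 bases and went from 128 to 158 reads in H460. Whether counting used the strand is not stated, so that reads from the overlap cannot be told apart, although IL6-AS1 had few reads beside IL6.

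IL1A went from 1362 to 649 reads in H460, a log2 fold change of -0.99 (-1.13 to -0.85), and from 11.6 to 5.31 TPM. It had 22 and 18 reads in A549 (-0.42, -1.42 to 0.53) and 3 and 10 in H1299 (1.52, -0.09 to 4.37), and both intervals include 0. Its close relative IL1B, which was not among the 10 genes, had 98 and 64 reads in H460. In H460, CXCL1, CXCL2, IL6, and IL1A thus lay between -0.96 and -1.02 on the log2 scale, although their control levels ranged from 11.6 TPM for IL1A to 538 TPM for CXCL1.

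The genes between and around the CXC chemokines on chromosome 4 were compared for the same libraries. Within 300 kb of CXCL8 and CXCL2 there were 25 annotated genes, the 5 chemokines included, and 11 had a mean of at least 50 reads. In H460, EPGN, an epidermal growth factor receptor ligand beyond CXCL2, went from 12259 to 6726 reads (log2 fold change -0.78), and PF4V1, a platelet factor variant between CXCL8 and CXCL1, from 113 to 53 (-1.0). MTHFD2L, a mitochondrial folate enzyme, went from 2826 to 2222 reads (-0.27), EREG, another epidermal growth factor receptor ligand, from 266 to 223 (-0.17), and the lncRNA LOC105377272 upstream of CXCL8 from 550 to 449 (-0.21). RASSF6 went from 42 to 74 reads (0.88), and the lncRNA LOC105377275, which starts on the opposite strand next to CXCL3, from 99 to 182 (0.95). Genes of the region thus lay on both sides of 0 in H460, and among the 11 with a mean of at least 50 reads CXCL8 was the lowest. In A549, where EREG was the most abundant of the flanking genes, it went from 7399 to 7795 reads (-0.07). The chemokines CXCL6, PPBP, and PF4 in the same cluster had at most 14 reads in a library.

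**Figure D3:**
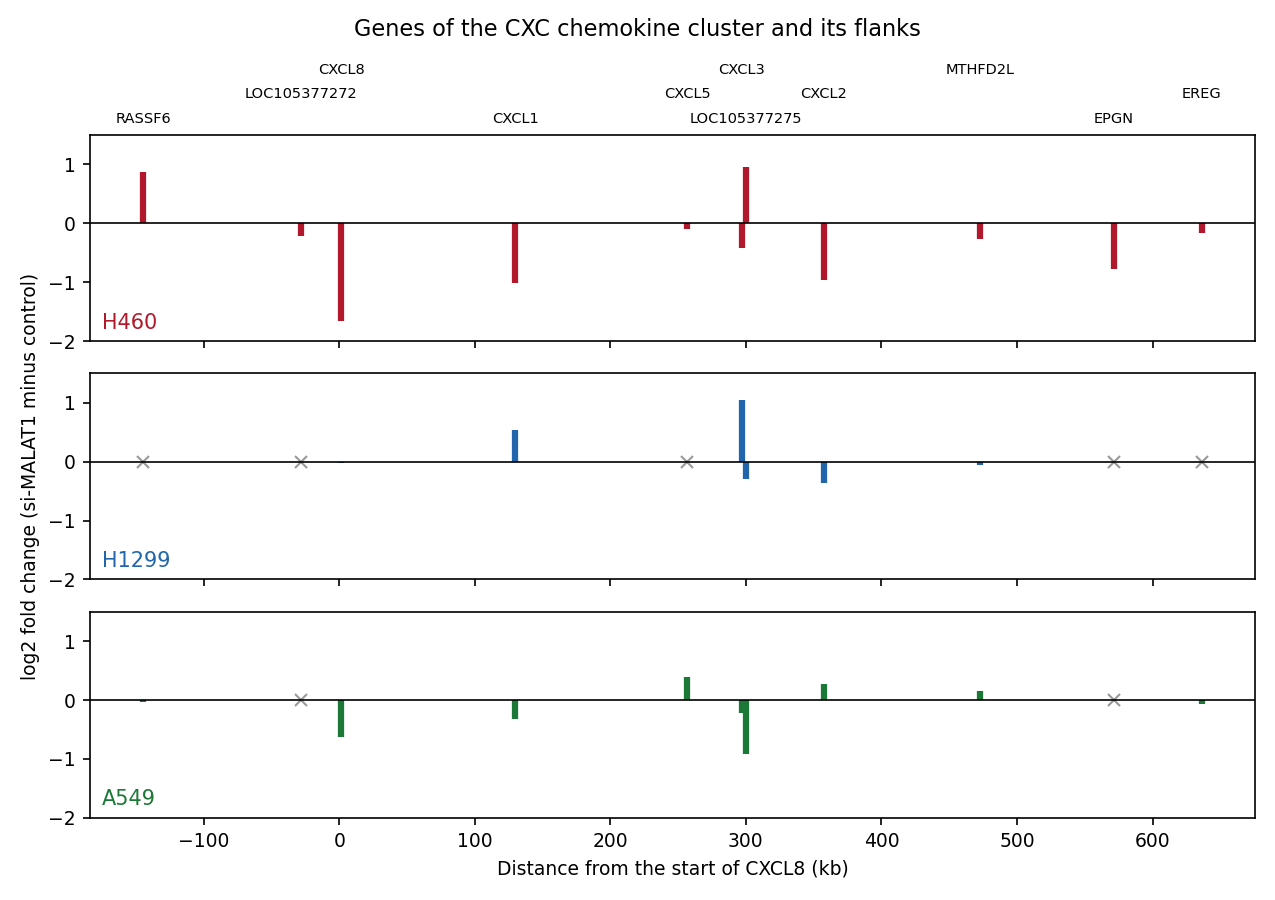
Log2 fold change (si-MALAT1 minus control) in each cell line of the 11 genes with a mean of at least 50 reads, by the distance of the gene's middle from the start of CXCL8 in kb. A cross marks a gene with under 20 reads in the libraries of a line or with 0 reads in either. In H460, CXCL8 (-1.66), CXCL1 (-1.02), CXCL2 (-0.96), and EPGN (-0.78) point down while CXCL5 (-0.10) lies between them near 0.

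The 3' UTRs of the 10 genes were read for the pentamer ATTTA, the core of AU-rich elements, in the canonical transcripts of GENCODE 44. IL6 carried 14.1 per kb and CXCL2 14.0 per kb, densities reached by 0.493% and 0.52% of 18854 genes with a 3' UTR. CXCL3 (10.4 per kb), CXCL1 (7.77), CXCL8 (7.19), CCL20 (6.34), CXCL5 (5.51), and IL1A (4.38) followed, all above the median of 1.58 per kb over all genes. CCL2 carried 1 ATTTA in 376 bases (2.66 per kb, also above the median), and CCL5 carried 0 in 779 bases. CCL5, with 0 copies, was lower in the 3 lines. CXCL8, with 9 copies, was lower in H460 and A549, and in H1299 its value of -0.03 had an interval across 0 (-0.85 to 0.79). CXCL2 and CXCL5, with 10 and 11 copies, lay on opposite sides of 0 between H460 and A549. Whether the copies bear on the fold changes was not tested. TATTTAT, a longer AU-rich motif, occurred 8 times in CXCL2 and 3 or 4 times in CXCL1, CXCL3, CXCL5, CXCL8, IL6, and IL1A, against 13.8% of genes with at least 2 copies.

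Most of the other chemokines that were listed were hardly expressed. Of 29 further chemokine genes, 1 had a read in each library, CXCL16, a transmembrane chemokine, which went from 307 to 522 reads in A549 (log2 fold change 0.62) and from 529 to 511 in H460 (0.03). CCL28, a mucosal chemokine, was an H1299 RNA, with 602 and 724 reads there and at most 4 in another library. Of 21 further inflammatory cytokines, 10 had a read in each library, and their median log2 fold change was -0.21 in H460, 0.50 in H1299, and 0.04 in A549, against 0.02, 0.02, and 0.01 over all genes. LIF, an IL6-family cytokine, was the best expressed of them in H460 and went from 11968 to 7283 reads there (-0.63), from 4752 to 2890 in A549 (-0.86), and from 2325 to 3717 in H1299 (0.81). IL18, an inflammasome-processed cytokine, went from 2831 to 1898 reads in A549 (-0.72), and IL15, a growth factor of T and NK cells, from 596 to 468 in H460 (-0.27), with 0.35 in H1299 and 0.08 in A549. None of these genes was called in the paired edgeR test. Of the 12 cytokines tested, 2 had an unadjusted p under 0.05, as did 2863 of all 19122 genes tested.

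Of the receptors through which the 10 proteins act, most chemokine receptors were not detected, and the signalling chains for IL6 and IL1A were. CCR2, CCR3, CXCR1, CXCR2, ACKR1, and ACKR4 had 0 reads in the 6 libraries, so that the receptors of the neutrophil-attracting chemokines were not detectable at this depth. IL6ST, the signal-transducing chain for IL6 and LIF, was the best expressed receptor at 44.6 to 56.4 TPM, with log2 fold changes of -0.07, 0.06, and -0.01 in H460, H1299, and A549. IL6R, the ligand-binding chain for IL6, went from 2089 to 4690 reads in H460 (log2 fold change 1.25), from 119 to 309 reads in H1299 (1.5), and from 390 to 1837 reads in A549 (2.09). It was higher after si-MALAT1 by over 1.5-fold in each line, and in H460 IL6 itself lay on the other side of 0. IL6R did not pass the paired edgeR test (adjusted p = 0.0734), whereas DESeq2 called it (adjusted p = 1.6e-10), as did edgeR without H460 (adjusted p = 0.0252). IL1R1, the receptor of IL1A, had log2 fold changes of 0.37, 1.25, and 1.03 (edgeR adjusted p = 0.130, 0.0348 without H460, DESeq2 0.00125), and its partner IL1RAP -0.35, 0.94, and 0.66 (edgeR adjusted p = 0.521). Of the 15 receptors, 6 were tested, and of these 0 were called by edgeR and 2 by DESeq2, which called 5.96% of all genes tested. In the edgeR test, 2 of the 6 receptors tested had an unadjusted p under 0.05, as did 2863 of all 19122 genes.

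NF-kB components and targets were compared because 7 of the 8 promoters carry its consensus. Of 18 NF-kB subunits and upstream kinases, 3 were lower and 0 higher by 1.5-fold in H460, 0 lower and 3 higher in H1299, and 3 lower and 0 higher in A549, with median log2 fold changes of -0.11, 0.10, and -0.04. For these and the following counts, the shares of all genes lower and higher by 1.5-fold were 10.3% and 9.5% in H460, 11.4% and 11.5% in A549, and 11.4% and 11.7% in H1299. NFKB2, the precursor of the p52 subunit, went from 7200 to 3395 reads within H460 (-1.0), from 1389 to 1006 in A549 (-0.61), and from 3398 to 2462 in H1299 (-0.33), with an adjusted p of 0.143 by edgeR and 0.00716 by DESeq2, which called 3 of the 18 (5.96% of all genes). The kinases MAP3K7 (-0.22, -0.32, and -0.41) and IRAK1 (0.07, 0.13, and 0.01) differed less. MAP3K14, also a kinase, had -0.71, -0.55, and -0.94 in H460, H1299, and A549 (edgeR adjusted p = 0.0915, DESeq2 0.000237). The kinase CHUK had -0.29, -0.58, and -0.74 (edgeR adjusted p = 0.138, DESeq2 0.00907), so that DESeq2 called both. Of 24 feedback and target genes, 22 had a read in each library, and 7 were lower and 1 higher in H460, 0 lower and 6 higher in H1299, and 4 lower and 2 higher in A549, with medians of -0.36, 0.19, and -0.05. SOD2, a mitochondrial superoxide dismutase, went from 23680 to 13767 reads in H460 (-0.70), and TNFAIP2, a TNF-induced gene, from 38561 to 20254 (-0.85), whereas TNFAIP2 had 210 and 311 reads in H1299 (0.69). NFKBIA, the inhibitor that NF-kB itself induces, had log2 fold changes of 0.00, -0.08, and -0.05. CD83, a surface glycoprotein, was on the other side of 0 in each line (0.63, 1.27, and 1.96, edgeR adjusted p = 0.120, 0.0383 without H460, DESeq2 0.000826), and DESeq2 called 4 of the 23 targets tested. In H460, 17 of the 22 targets lay below 0, against 48.1% of all genes. In A549, 12 of the 22 lay below 0, against 49.3%, and in H1299 13 of the 22 lay above 0, against 51.9%. The counts in A549 and H1299 were thus near the shares of all genes.

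**Figure D4:**
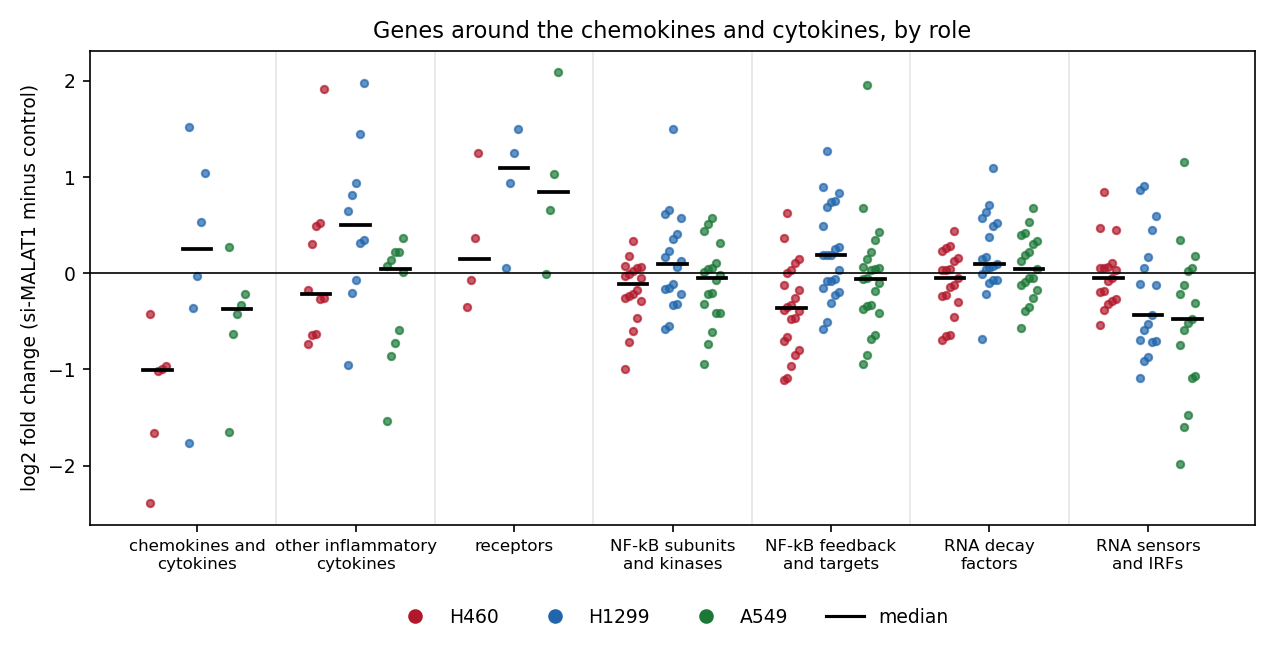
Log2 fold change (si-MALAT1 minus control) of genes with a read in each of the 6 libraries, by role and cell line, with a black bar at the median. For the chemokines and cytokines only 6 of the 10 genes are drawn, which had reads in each library. The receptor column holds IL6R, IL6ST, IL1R1, and IL1RAP, and its medians are 0.15, 1.10, and 0.84 in H460, H1299, and A549.

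Factors that bind AU-rich elements or degrade such RNAs lay on both sides of 0. The medians of 19 of them were -0.05, 0.10, and 0.04, and 3, 1, and 0 were lower and 0, 3, and 1 higher by 1.5-fold in H460, H1299, and A549. TIA1, an AU-rich element binding protein, had log2 fold changes of 0.44, 0.17, and 0.42 (edgeR adjusted p = 0.273), and the deadenylase subunits CNOT1 (-0.14, 0.10, and -0.09) and CNOT7 (0.26, 0.06, and 0.13) differed less. KHSRP, which binds AU-rich elements and promotes decay, had -0.64, -0.68, and -0.57 (edgeR adjusted p = 0.0819, DESeq2 7.18e-06), and DESeq2 called 3 of the 19. RNA sensors and interferon regulatory factors were listed because introduced siRNA can be sensed as foreign RNA. Of 23, 17 had a read in each library, with medians of -0.05, -0.43, and -0.48, and 0, 7, and 7 of them were lower and 1, 3, and 1 higher by 1.5-fold in the same order of lines. Of all genes, 10.3%, 11.4%, and 11.4% were lower and 9.5%, 11.7%, and 11.5% higher by 1.5-fold in that order. TLR3, an endosomal receptor of double-stranded RNA, was higher in each line (0.85, 0.91, and 1.16, edgeR adjusted p = 0.104, DESeq2 0.000499), while TBK1 had 0.11, 0.06, and -0.12 and IRF3 -0.19, -0.59, and -0.52. Neither list had a gene called by edgeR, and DESeq2 called 4 of the 17 sensors and factors tested, where it called 5.96% of all genes tested.

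The markers of other cells were read beside these results. Among 10 leukocyte markers, CD14 had 648 and 840 reads in H460, 219 and 490 in A549, and 3 and 3 in H1299, and ITGAM 254 at most, and the summed level went from 7.41 to 9.33 TPM in H460, from 5.49 to 10.6 in A549, and from 1.32 to 1.33 in H1299. The summed level of 6 fibroblast markers went from 22.5 to 20.3 TPM in H460, from 11.7 to 10.8 in A549, and from 0.301 to 0.857 in H1299, with COL3A1 first at 4961 and 4300 reads in H460 and LUM at 612 and 642, and COL1A1 (1.51, 2.02, and 0.67, edgeR adjusted p = 0.136, DESeq2 0.00355) higher in each line. The 4 endothelial markers summed to 1.11 TPM or less, with CDH5 at 0 in the 6 libraries and KDR at 386 reads or fewer. The 6 epithelial markers summed to 1250 and 896 TPM in H460, 5510 and 2450 in A549, and 481 and 459 in H1299. KRT8, KRT18, and KRT7 had log2 fold changes of -1.16, -1.23, and -1.04 in A549, and EPCAM 1.33, 0.99, and 1.16 over the lines (edgeR adjusted p = 0.123, DESeq2 0.0103). The part of these markers in the chemokine values was not tested.

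Over the 6 libraries, the genes most like the 3 highest chemokines were found by Pearson's r of log2 scaled reads among 15903 genes with a mean of at least 50 reads. For CXCL8 these were LINC01433 (r = 0.9986), LAMB1 (0.9982), and P4HB (0.9982). For CXCL1 they were ZC3H8 (0.9992), TRIB3 (0.999), and ABL1 (0.999), and for CXCL5 LINC02615 (0.9992) and CSP3 (0.999). Of these, LINC01433 came closest to the size of the chemokine's range, with 1994 and 673 reads in H460, 123 and 85 in A549, and 7 and 5 in H1299. The 6 points are 3 pairs from 3 cell lines and are dominated by the gap between lines, so the coefficients describe these libraries only.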

How the data were processed

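RNA-seq was analysed in 6 libraries, 3 control and 3 si-MALAT1, grouped from the sample labels. Before deposit, the authors removed adapters and poor bases, mapped reads on hg38 (HISAT 2.1.0), and used StringTie for abundances. The methods and the submitters' processing notes give different StringTie versions (1.3.4b in the notes), and the notes list both hg19 and GRCh38, of which the coordinates of the deposited annotation are GRCh38. The deposited read counts are whole numbers and not normalized. The FPKM and TPM were deposited by the authors, scaled for length and depth, and only TPM was used for levels between genes. The deposited annotation, an NCBI RefSeq set of exon coordinates, gave the gene positions. The table has another 18 columns of per-sample values that match no sample here and were not used. Columns of fold changes or p-values by the authors were not used.

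Counts were scaled with RLE size factors and 1 was added, and log2 fold changes are si-MALAT1 minus control. Fold changes for all genes were counted over 17834 genes with a read in each of the 6 libraries. The threshold of 1.5-fold (0.58 on the log2 scale) and that of 1.5 on the log2 scale were both used, since the study gives both. Total counts ranged from 42506818 to 68515992, and intervals and floors of 3 reads cover counting error only. For the paired test, edgeR (4.0.16) was run with glmQLFTest on 19122 genes kept by filterByExpr, with TMM factors and a term for the cell line, and p-values were adjusted after Benjamini-Hochberg (threshold 0.05, 2 residual degrees of freedom). DESeq2 (1.42.0), named in the methods, served as an alternative, as did other scalings, filters, pseudocounts, and leaving out a line. The pairing comes from the cell line, and the 2 libraries of a line deviated together from the group means (r of 0.863 to 0.910 over 19122 genes). The scripts were tested on simulated data.

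The 10 genes and the lists were chosen with earlier results of these data known, and GGAATTTCC after the promoter sequences had been read. Named genes are the 10 members, and of each further list the 3 with the highest mean TPM and those past 1.5-fold in the same direction in the 3 lines with a mean of at least 50 reads. The neighbours within 300 kb, the 3 genes most like each of the 3 highest members, and MALAT1 were also named. Some genes that this rule names are not reported here. IL1B, CDH1, CDH5, KRT19, the chemokine receptors at 0, the leukocyte markers at 0, CXCL6, PPBP, PF4, IL6-AS1, KHSRP, and LOC105371744 were named after their values were seen. The same holds for MAP3K14 and CHUK. Promoters came from RefSeq (GRCh38.p14), with 8 of 10 genes matched by symbol, and 3' UTRs from GENCODE 44. Software was pandas 2.3.3, scipy 1.17.1, and numpy 2.4.6 in Python 3.11.15, with R 4.3.3.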

Additional observations from a re-analysis of the deposited data

Results flagged for a closer look

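Of the 10 genes, 4 had log2 fold changes whose counting intervals lay on opposite sides of 0 in different cell lines, and with 1 pair of libraries per line the difference was not tested. CXCL1 had -1.02 in H460 and -0.33 in A549 but 0.53 in H1299. CXCL2 had -0.96 in H460 and -0.36 in H1299 but 0.27 in A549. CXCL3 had -0.42 in H460 and 1.04 in H1299, where it rested on 33 and 63 reads. CXCL5 had -0.10 in H460 and 0.39 in A549.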

How the results depend on the processing

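The paired edgeR test called 0 genes higher and 1 lower. DESeq2 called 563 higher and 577 lower, and the lower count was 0 without the filter on low counts and 0 with no replicate block (adjusted p = 1.00 for each of the 10 genes). Leaving out a cell line gave 0 to 51 higher and 0 to 112 lower, the upper values without H460, and none of the 10 genes passed edgeR in any of these fits. CXCL8 (-0.89, adjusted p = 0.0288) and IL6 (-0.96, adjusted p = 0.0123) passed with DESeq2. The sign of the paired estimate turned for CXCL1 (0.05) and IL1A (0.49) without H460, for CXCL3 (-0.33) without H1299, and for CCL2 (0.65), CCL20 (-0.10), and CXCL5 (-0.31) without A549, as well as for CXCL5 with DESeq2 (-0.71) and CXCL3 with no replicate block (-0.31), none past the threshold. MALAT1 missed the threshold without the filter (-2.73, adjusted p = 0.171), with no replicate block (-2.71, adjusted p = 1.00), without H1299 (-2.58, adjusted p = 0.125), and without A549 (-2.65, adjusted p = 0.275). Counts of genes past 1.5-fold depended on the filter and unit. Higher and lower in H460, H1299, and A549, they were 236 and 803, 1030 and 778, and 670 and 896 with log2(TPM + 1), which shrinks low levels by construction. With at least 1 read in the libraries of a line together they were 4673 and 4426, 5507 and 5256, and 5021 and 4458. With a mean of at least 50 reads they were 971 and 999 in H460, 1298 lower in H1299, and 1211 and 1300 in A549. Past 1.5 on the log2 scale (main 492, 389, and 599) the counts were 89, 112, and 186 with a pseudocount of 10, 23, 31, and 53 with TPM, 4095, 3434, and 4077 with a read in the libraries of a line together, and 144, 163, and 232 with a mean of at least 50 reads. With TPM, 0 of the 10 genes were higher and 0 lower by 1.5-fold in H1299, and the further lists held 2 genes higher in H460, 14 higher and 4 lower in H1299, and 5 higher in A549. Of 27 fold changes of the 10 genes within a line, 1 changed sign under an alternative, and TMM or library total scaling moved none by more than 0.1. A pseudocount of 10 or TPM moved those on low counts further. CCL5 then had -1.51 or -0.51 in H460, -1.04 or -0.33 in H1299, and -1.51 or -1.07 in A549. In H1299, CXCL5 went from -2.71 to -0.64 or -0.06, and IL1A from 1.52 to 0.59 or 0.10. Depth limits CCL5 in the 3 lines, most of these genes in H1299, and IL6 and IL1A in A549.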
